A study of Mus musculus with 8 samples.

Results

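The genes of major histocompatibility complex (MHC) class II presentation were examined in mouse macrophages given the iron hormone hepcidin. They are the 8 genes H2-Aa, H2-Ab1, H2-Eb1, H2-DMa, H2-DMb1, H2-DMb2, Cd74 and Ciita, each taken as the probe set whose number is its Entrez gene number. All 8 were on the array, among 24011 genes with a measured value. Macrophages had been grown for 7 days from bone marrow of wild-type mice 8 to 10 weeks old, in medium with 30% L cell-conditioned medium as the source of M-CSF, the growth factor that makes macrophages. Strain and sex of the mice were not given. They were then seeded at 150000 cells per well with 15% of that medium. Before lysis 4 samples were given hepcidin (Hepcidin, 10 µg/ml for 1 h) and 4 were given PBS (0 µg/ml). The labels number the samples 1 to 4 in each group without saying whether a number stands for an animal, a culture or a day, so the p-values cover the spread among these 8 samples, and that spread may be technical.

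MHC class II molecules are surface receptors that show peptides from ingested material to CD4 T cells. The alpha and beta chains pair in the endoplasmic reticulum with the invariant chain, which Cd74 encodes and which fills the peptide groove until proteases of the endosome cut it away. The DM molecule then exchanges the remaining fragment for antigen peptide, and the DO molecule restrains it. Transcription of these genes depends on CIITA, a coactivator that binds no DNA itself but docks on RFX, CREB and NF-Y factors at the X and Y boxes of class II promoters. Resting macrophages carry little of it, and interferon gamma is its classical inducer.

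Values are log2 expression as the authors deposited them, so a difference of 1 is a doubling of signal. All arrays had a similar median, from 4.87 to 4.95. Background was read from 1091 olfactory receptor genes, most of which are used in the nose, with a median level of 2.92, a 95th percentile of 4.77 (the background mark below) and a highest level of 10.4. Of 9 macrophage markers 7 were measured, with means over the 8 arrays from 8.34 for Mertk to 13.1 for Cd68, so macrophage markers were abundant on these arrays. In both groups fewer class II-bearing cells and less RNA per cell cannot be told apart.

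The promoters below are shown because shared letters are what class II promoters are known for. Whether these letters bear on the differences between samples described further on was not tested. They run from 250 bases before to 50 bases after the transcript start, from RefSeq (GRCm38.p6). RefSeq windows were found for 5 of the 8 members, and H2-Ab1, Cd74 and Ciita are named only. Capitals mark the Y box core TGATTGG, the X box part AACNGATG and the CREB-type X2 box TGACGTCA, searched on both strands. These letters were chosen after the windows had been read.
H2-Aa, encoding the alpha chain of I-A, minus strand of chr17:34287774-34288073: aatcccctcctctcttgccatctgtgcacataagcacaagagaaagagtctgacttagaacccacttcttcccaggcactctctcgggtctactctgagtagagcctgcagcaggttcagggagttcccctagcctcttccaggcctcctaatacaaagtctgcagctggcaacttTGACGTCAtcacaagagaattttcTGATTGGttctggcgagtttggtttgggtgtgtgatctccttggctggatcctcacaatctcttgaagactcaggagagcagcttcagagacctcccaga
H2-Eb1, encoding the beta chain of I-E, plus strand of chr17:34305617-34305916: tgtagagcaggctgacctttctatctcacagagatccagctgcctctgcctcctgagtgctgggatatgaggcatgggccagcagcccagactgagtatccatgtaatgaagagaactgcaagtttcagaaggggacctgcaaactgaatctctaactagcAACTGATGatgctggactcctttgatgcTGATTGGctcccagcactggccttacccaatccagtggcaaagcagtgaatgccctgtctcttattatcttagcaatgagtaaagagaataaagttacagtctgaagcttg
H2-DMb1, encoding a beta chain of DM, plus strand of chr17:34152941-34153240: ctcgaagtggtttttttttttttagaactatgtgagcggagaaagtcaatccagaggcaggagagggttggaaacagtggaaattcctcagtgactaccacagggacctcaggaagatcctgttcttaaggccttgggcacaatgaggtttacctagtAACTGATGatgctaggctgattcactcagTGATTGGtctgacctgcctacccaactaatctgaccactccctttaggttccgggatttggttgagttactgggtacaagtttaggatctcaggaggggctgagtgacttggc
H2-DMb2, encoding the other beta chain of DM, plus strand of chr17:34144999-34145298: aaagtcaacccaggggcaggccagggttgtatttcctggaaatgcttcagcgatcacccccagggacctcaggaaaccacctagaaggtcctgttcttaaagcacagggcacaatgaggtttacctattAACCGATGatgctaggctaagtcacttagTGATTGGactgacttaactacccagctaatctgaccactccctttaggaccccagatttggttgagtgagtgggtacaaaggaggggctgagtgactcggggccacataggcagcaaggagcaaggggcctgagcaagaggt

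All 4 windows hold the Y box core on the strand of the transcript, as do 7.82% of the 32851 mouse promoter windows of this length on either strand. The X box part stands 20 bases before it in H2-Eb1 and 21 bases before it in H2-DMb1 and H2-DMb2, and 2.32% of all windows hold that part. H2-Aa holds the X2 letters in its place, at -74 to -67 from the start against -50 to -44 for the Y box core, and 1.79% of all windows hold these. An X box part followed after 10 to 30 bases by the Y box core was found in 5 windows in all, those of H2-Eb1, H2-DMb1, H2-DMb2, H2-Eb2 and BC051142. Neither window of H2-DMa, which encodes the DM alpha chain, holds any of these letters. The windows of H2-DMb1 and H2-DMb2, adjacent near-copies, share 84.2% of 247 aligned bases. The probe sequences were not used here, so how far the probe sets of these copies read each other's transcript is not known.

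The first question was whether the class II genes respond within 1 h of hepcidin. None of the 8 passed limma's test at the threshold, a p of 0.05 after adjustment over all 24011 genes, and 0 of 8 had an unadjusted p under 0.05. Over all genes 0.00% passed the adjusted threshold and 2.86% had an unadjusted p under 0.05. The log2 differences, Hepcidin minus PBS, lay between -0.38 for H2-DMb2 and 0.17 for H2-Ab1, with a median of -0.01 over the 8 members and 0.00 over all genes. Of the 8 members 3 were above 0 and 5 below, though Cd74 and Ciita, both at -0.01, moved above 0 with median centring and Ciita also with cyclic loess. The groups overlapped for every member. Tnf, the cytokine gene with the smallest adjusted p in this comparison (0.0762), differed by 1.28 ± 0.14 (SE) on the same arrays. Its call depended on the fit: the adjusted p was 0.105 with the number as a block and 0.0169 with it as a random block, and it passed at 0.0483 among genes with a mean level of 6 or more and at 0.0478 without the Hepcidin array numbered 2.

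**Figure D1:**
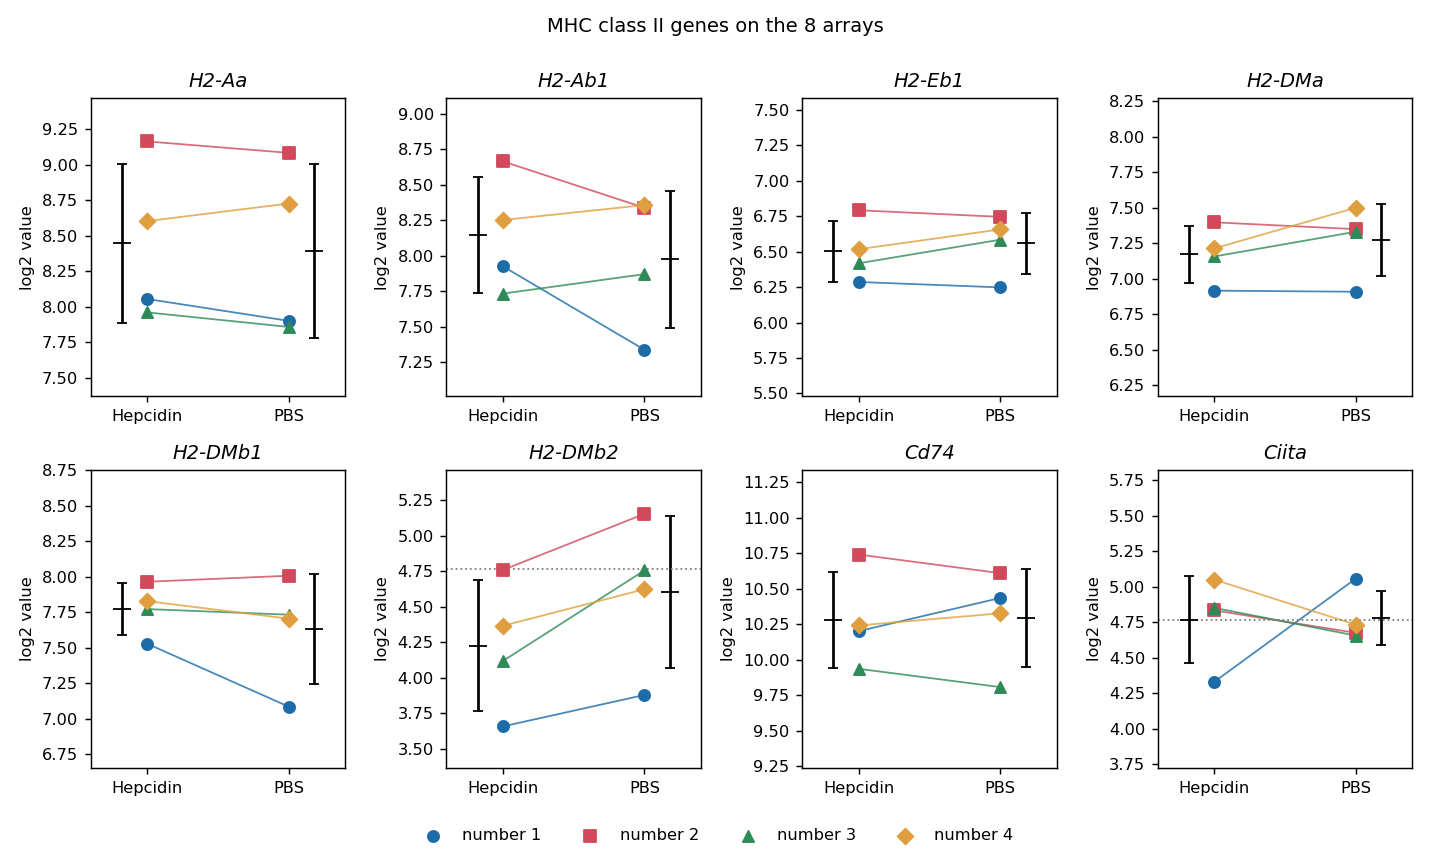
Log2 value of each class II gene on the 8 arrays, Hepcidin on the left and PBS on the right of each panel. Colours and symbols give the number in the sample titles, lines join arrays with the same number, black bars are group means ± SD (n = 4), every panel spans the same height of the log2 scale, and the dotted line is the 95th percentile of the olfactory receptor genes (4.77). For H2-Aa both arrays numbered 2 lie above 9 and both numbered 3 below 8.

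Among the chains of the classical molecule, H2-Aa stood at 8.05, 9.16, 7.96 and 8.60 on the Hepcidin arrays 1 to 4, against 7.90, 9.08, 7.86 and 8.73 on the PBS arrays 1 to 4. Number 2 was highest and number 3 lowest in both groups, which covered nearly the same range. The difference was 0.05 ± 0.33 (SE; limma, adjusted p 1.00), a ratio of 1.04 with a 95% interval from 0.626 to 1.72. With the number as a block the SE was 0.08, and the 95% interval of the log2 difference ran from -0.13 to 0.23.

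H2-Ab1, the gene of the I-A beta chain that pairs with the product of H2-Aa, stood at 7.93, 8.67, 7.73 and 8.25 with Hepcidin, against 7.34, 8.34, 7.87 and 8.36 with PBS. It was higher with Hepcidin for numbers 1 and 2, by 0.59 and 0.33, and lower for numbers 3 and 4, at -0.14 and -0.10. Its ratio of 1.12 had a 95% interval from 0.760 to 1.66 (limma, adjusted p 1.00). With the number as a block the 95% interval of the log2 difference ran from -0.13 to 0.47. Leaving out the PBS array numbered 1 turned the difference of 0.17 to -0.04.

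The I-E beta chain gene H2-Eb1 stood at 6.29, 6.79, 6.42 and 6.52 with Hepcidin, against 6.25, 6.74, 6.58 and 6.66 with PBS. Numbers kept the same order in both groups, 2 highest, then 4, 3 and 1. The ratio was 0.962 with a 95% interval from 0.781 to 1.19. With the number as a block the 95% interval of the log2 difference ran from -0.23 to 0.12. H2-Ea, the alpha partner in the I-E molecule, is annotated as a transcribed pseudogene in the RefSeq assembly, which is of C57BL/6J mice. It stood at 3.68 with Hepcidin and 3.55 with PBS, below the background mark of 4.77.

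Cd74, the invariant chain gene, stood at 10.20, 10.74, 9.94 and 10.24 with Hepcidin, against 10.44, 10.61, 9.81 and 10.33 with PBS. Number 2 was again highest and number 3 lowest in both groups. Its difference of -0.01 ± 0.20 (SE) corresponds to a ratio of 0.990, with a 95% interval from 0.729 to 1.34. With the number as a block the 95% interval of the log2 difference ran from -0.22 to 0.19.

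Of the peptide-exchange genes, H2-DMa stood at 6.91, 7.40, 7.16 and 7.21 with Hepcidin, against 6.91, 7.35, 7.33 and 7.50 with PBS. Number 1 was lowest in both groups. Numbers 2 to 4 ran from 7.33 to 7.50 with PBS and more widely, from 7.16 to 7.40, with Hepcidin. The ratio of H2-DMa was 0.932, with a 95% interval from 0.749 to 1.16. With the number as a block the 95% interval of the log2 difference ran from -0.29 to 0.09. H2-DMb1 stood at 7.53, 7.97, 7.77 and 7.83 with Hepcidin, against 7.09, 8.01, 7.73 and 7.71 with PBS. Number 1 gave the largest gap between the groups, 0.44, and the other numbers differed by -0.04 to 0.12. The ratio was 1.10, with a 95% interval from 0.836 to 1.45, and the difference of 0.14 was -0.04 without the PBS array numbered 1. With the number as a block the 95% interval of the log2 difference ran from -0.08 to 0.36.

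H2-DMb2 was the member whose pairs all had the same sign. It stood at 3.66, 4.76, 4.12 and 4.37 with Hepcidin, against 3.88, 5.15, 4.76 and 4.62 with PBS, so every Hepcidin array lay below its same-numbered PBS array. The pair differences were -0.22, -0.39, -0.64 and -0.26, and 5.92% of all genes were lower in 4 of 4 pairs. Over groups the difference of -0.38 ± 0.28 (SE) did not pass (limma, unadjusted p 0.209, adjusted p 1.00). With the number as a block its SE was 0.09 and its unadjusted p 0.00320, but the adjusted p over all genes was 0.784, where 0.00416% of all genes passed. In that fit 1 of the 8 members and 4.91% of all genes had an unadjusted p under 0.05. Most of these values lie below the background mark of 4.77, where RMA compresses ratios, and H2-DMb1, its near-copy, differed by 0.14 the other way. Single arrays moved the value, to -0.62 without the PBS array numbered 1 and to -0.19 without the Hepcidin array numbered 1 or the PBS array numbered 2.

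Ciita, the coactivator gene, stood at 4.33, 4.83, 4.85 and 5.05 with Hepcidin, against 5.06, 4.68, 4.66 and 4.73 with PBS. These levels straddle the background mark and cannot be told from background in either group. Number 1 went the other way from the rest, at -0.73 against 0.16, 0.20 and 0.32 for numbers 2 to 4. The difference of -0.01 ± 0.15 (SE) therefore averages pairs of opposite sign. Without both arrays numbered 1 it was 0.22, with an adjusted p of 1.00 in limma and 0.887 with the number as a block.

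**Figure D2:**
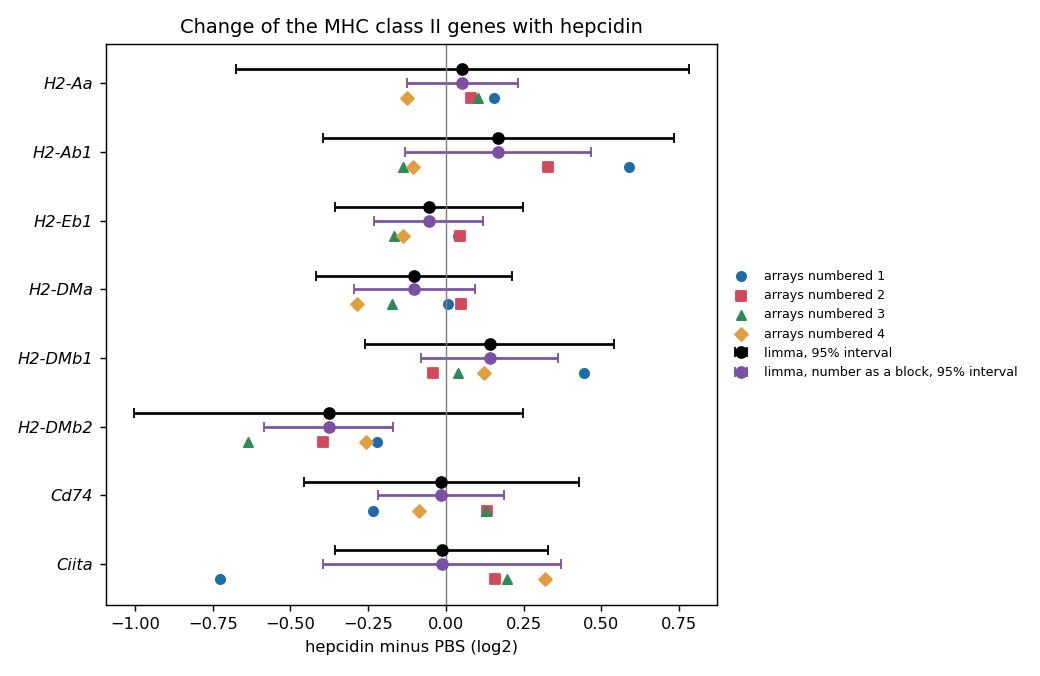
Difference between Hepcidin and PBS for each class II gene (log2). Black points and bars are limma's estimates with 95% intervals, violet ones the same with the number as a block, and coloured symbols the 4 same-numbered pairs. Only the violet interval of H2-DMb2 lies clear of 0, and the coloured symbol of number 1 stands far from the other pairs for Ciita.

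The rest of the presentation pathway was followed in 39 measured genes of 7 lists. None passed over all genes in limma, 3 had an unadjusted p under 0.05, and the median difference was 0.03 against 0.00 over all genes. All 3 were higher with Hepcidin, and 1.33% of all genes had such a p and were higher. They were also higher in 4 of 4 pairs, with no overlap of the groups. As they were picked by their p in the same comparison, that is not separate evidence. Of the 39 genes 6 were higher and 1 was lower in 4 of 4 pairs, and groups did not overlap for 3. Over all genes 5.69% were higher and 5.92% lower in 4 of 4 pairs, and groups did not overlap for 1.88%. Irf1, the interferon response factor that acts on the promoter of Ciita, stood at 7.49, 7.41, 7.30 and 7.28 with Hepcidin, against 6.69, 7.05, 6.98 and 7.06 with PBS. That is a difference of 0.43 ± 0.10 (SE; limma, unadjusted p 0.00187, adjusted p 1.00). Prdm1, which encodes Blimp-1, a repressor of Ciita in plasma cells, stood at 6.95, 7.08, 7.02 and 7.14 with Hepcidin, against 6.82, 6.67, 6.57 and 6.77 with PBS. Its difference was 0.34 ± 0.08 (SE; unadjusted p 0.00256, adjusted p 1.00), and for both genes the adjusted p was 0.784 with the block and 0.570 with the number as a random block. Cd40, the receptor through which T cells stimulate the presenting cell, differed by 0.26 ± 0.10 (SE; unadjusted p 0.0279, adjusted p 1.00).

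Within the lists, no member of the other class II chains and peptide editors passed in either direction (0 of 4). H2-Oa and H2-Ob, the chains of DO, differed by 0.14 and -0.05 at means over the 8 arrays below 4.77, and so did H2-Ea and H2-Eb2 by 0.13 and -0.14. The endosomal proteases gave 0 of 9 passing, with all 9 differences between 0.00 and 0.10. Cathepsin S (Ctss), which cuts the invariant chain, stood at 12.69 in both groups, and the asparaginyl endopeptidase gene Lgmn and the thiol reductase gene Ifi30 differed by 0.03 and 0.04. Napsa and Ctsd, the aspartic proteases with the smallest unadjusted p of that list, differed by 0.10 and 0.05. Napsa had the lowest level of the 9, at 7.52 with Hepcidin and 7.42 with PBS, above the background mark.

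For the ubiquitin ligases that send class II molecules to lysosomes, 0 of 2 passed, with -0.04 for Marchf1 and 0.08 for Marchf8. Of the factors that bind the X and Y boxes 0 of 8 passed. The RFX subunit gene Rfx5 differed by 0.12, the NF-Y subunit gene Nfyc by -0.09 and the CREB relative Atf1 by -0.26 ± 0.17 (SE). From interferon gamma to Ciita 0 of 8 passed, with 0.04 and 0.14 for the receptor chain genes Ifngr1 and Ifngr2. Ifng itself lay at 3.46 with Hepcidin and 3.50 with PBS, both below the background mark. Among inhibitors of class II transcription 0 of 4 passed, with -0.11 for Zbtb32, and among costimulatory genes 0 of 4, with 0.23 for the ICOS ligand gene Icosl.

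**Figure D3:**
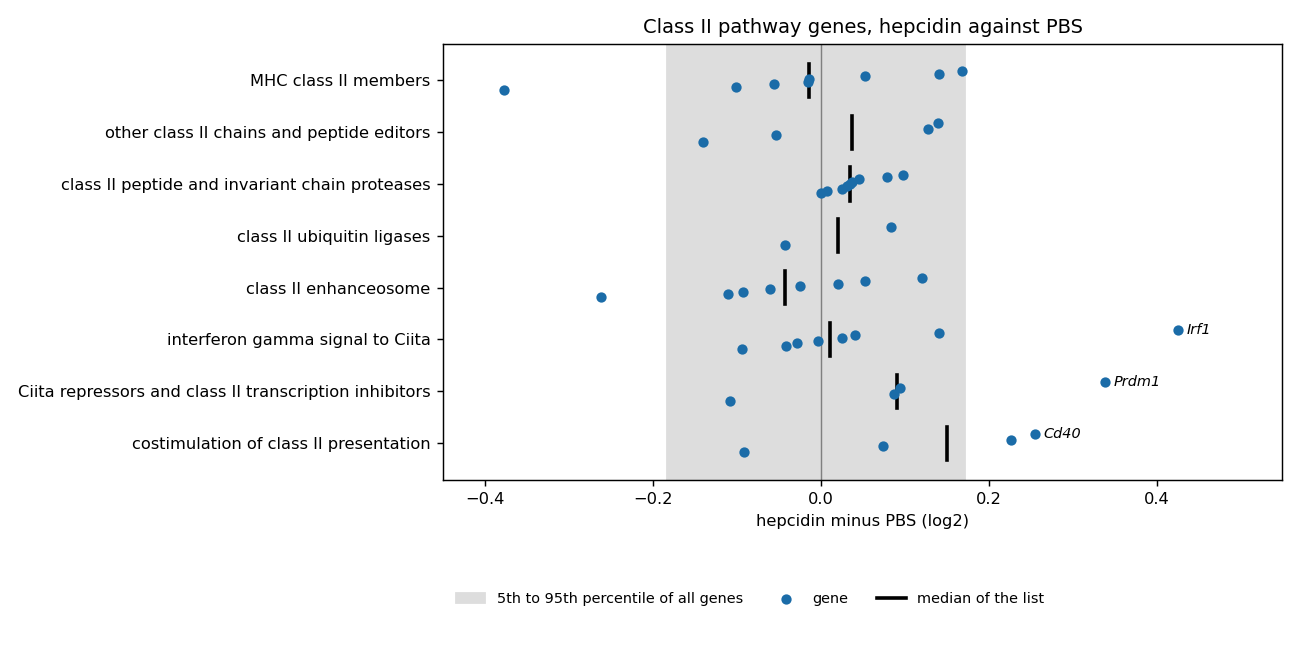
Difference between Hepcidin and PBS (log2) for the 8 class II members and 39 further genes of the pathway, a point per gene and a black bar at the median of each list. Grey covers the 5th to 95th percentile of all genes (-0.18 to 0.17), and the genes named in the plot had an unadjusted p under 0.05. Points lie mostly inside the grey band, with Irf1 and Prdm1 farthest to the right.

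The second question was how the class II genes spread among the same-numbered pairs. Of the 8 genes, 7 varied mostly with the number and Ciita did not. In limma's F test of the number, with treatment as a term and adjustment over all genes, 3 of the 8 members passed: H2-Aa (adjusted p 0.00300), H2-DMb2 (0.00874) and Cd74 (0.0364). Over all genes 5.60% passed. At an unadjusted p under 0.05 there were 7 members, all but Ciita, against 20.6% of all genes. Leaving out both arrays of a number left fewer arrays and fewer calls, 1 member without number 1 or number 2 and 2 members without number 3 or number 4. H2-Aa passed in each of these fits (adjusted p 0.00657 to 0.0400). Cd74 passed in none (0.0540 to 0.228), and H2-DMb2 not without number 1 (0.186) or number 2 (0.0511). Over all genes 0.691%, 4.10%, 4.24% and 3.41% passed without numbers 1, 2, 3 and 4. The count was higher when dim genes were left out, 6 of the 6 members tested at a mean level of 6 or more (31.2% of the genes tested) and 6 of 6 from the median level upward (21.6%), and it was 5 of 8 with trend and robust variance (11.8%).

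For H2-Aa the means of the pairs were 9.12 for number 2, 8.66 for number 4, 7.98 for number 1 and 7.91 for number 3. The last 2 differ by less than the 0.15 between the arrays numbered 1. From highest to lowest this is 2.32-fold, and the number accounted for 98.6% of the sum of squares of the gene, treatment for 0.27%. H2-Ab1 had the same top numbers, 8.50 for number 2 and 8.31 for number 4, above 7.80 for number 3 and 7.63 for number 1, a 1.83-fold range. Its residual was larger, 14.7% of the sum of squares, and the F test gave an adjusted p of 0.0684.

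Cd74 followed another order. Number 2 was highest at 10.68, numbers 1 and 4 stood at 10.32 and 10.28, and number 3 was lowest at 9.87, a 1.75-fold range. The arrays of number 1, low for both I-A chains, were thus in the middle for the invariant chain. By pair means the DM genes and H2-Eb1 had the order of H2-Ab1, number 2 highest, then 4, 3 and 1. Neither group of H2-Ab1 had that order by itself. Its numbers 1 and 3 differed by less than the arrays numbered 1, and its numbers 2 and 4 by less than the arrays numbered 2. The spans of pair means were 1.42-fold for H2-Eb1, 1.38-fold for H2-DMa, 1.60-fold for H2-DMb1 and 2.28-fold for H2-DMb2, the last at 4.96 for number 2 and 3.77 for number 1. Numbers 3 and 4 could not be separated for H2-DMb1 (7.75 and 7.77) or H2-DMb2 (4.44 and 4.49), where they differed by less than the arrays of a number. The same held for H2-Eb1 (6.50 and 6.59) and H2-DMa (7.24 and 7.36), though there number 4 lay above number 3 in both groups. For H2-DMa numbers 2 and 4 could not be separated either, with pair means of 7.37 and 7.36 against 7.21 with Hepcidin and 7.50 with PBS on the arrays numbered 4.

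Number 2 had the highest pair mean for 7 of the 8 genes, although among the PBS arrays number 4 was highest for H2-DMa and H2-Ab1. Ciita was the exception, with pair means within 0.20 of each other (4.70 to 4.89) and an F test adjusted p of 0.926. The share of all genes highest in number 2 was not computed, so that count has no background to be set against. The number took 80.7% to 98.6% of the sum of squares in the 7 genes and 10.7% in Ciita, against a median of 55.7% over all genes and 74.8% over the 9274 genes whose mean level reached 6. Treatment took at most 6.67% in 7 of the 8 and 16.1% in H2-DMb2, against a median of 5.12% over all genes. With the number in the fit the residual SD of H2-Aa was 0.09, against 0.58 without it, and that of Ciita was 0.34, against 0.25 without it.

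**Figure D4:**
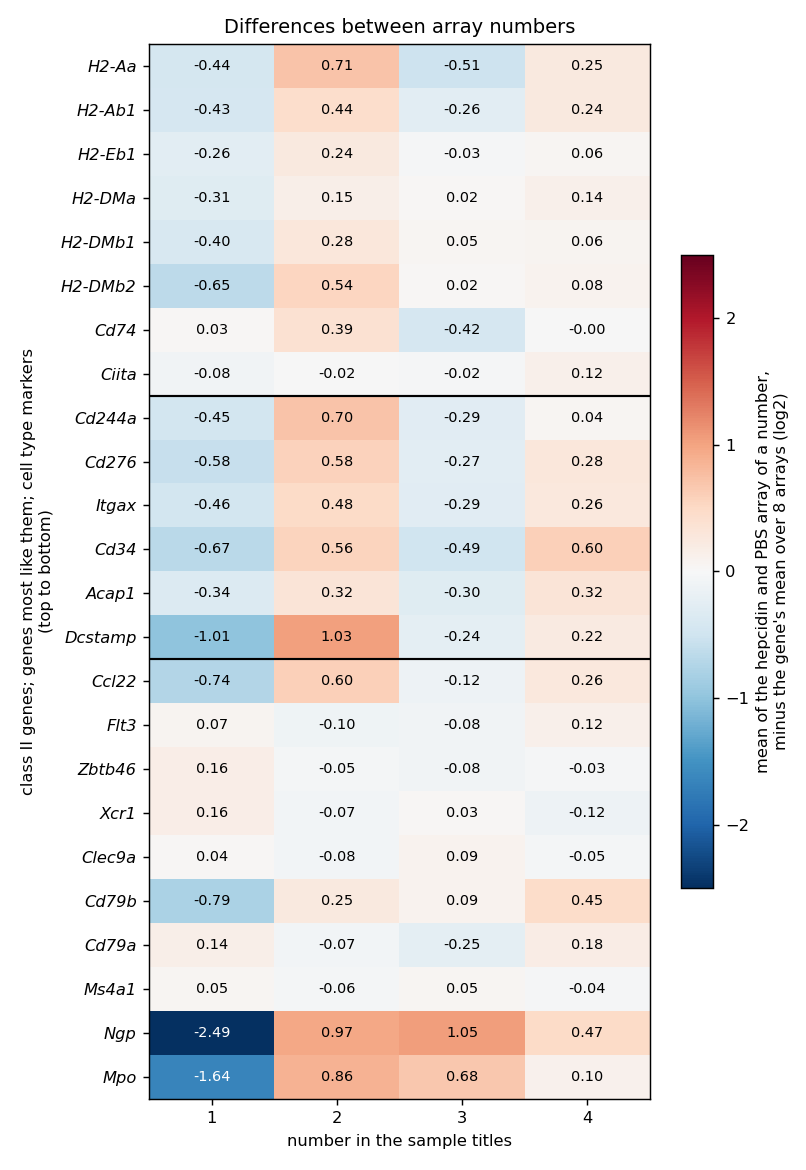
Mean of the Hepcidin and PBS array of each number, minus the gene's mean over the 8 arrays (log2). Class II genes are at the top and markers of other cell types at the bottom. In the middle are the 6 genes most like the mean profile of H2-Aa, H2-Ab1, H2-Eb1 and Cd74. Red is higher and blue lower than the gene's mean. Number 2 is red for 7 of the 8 class II genes, number 1 is deep blue for the granule genes Ngp and Mpo, and Flt3, Zbtb46, Xcr1 and Clec9a are pale throughout. Ccl22 reads -0.74 in number 1 and 0.60 in number 2.

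Similar profiles were sought among 631 genes whose mean level reached 6 and whose range reached 1, by Pearson's r over the 8 arrays with the mean centred profile of H2-Aa, H2-Ab1, H2-Eb1 and Cd74. The 8 arrays fall into 4 numbers, so these correlations describe a few independent points. The highest were Cd244a (r = 0.94), a receptor of the SLAM family, and Cd276 (0.93), a surface protein of the B7 family. Itgax (0.92), which encodes the integrin CD11c, came next, followed by Cd34 (0.91), Acap1 (0.90) and Dcstamp (0.90), the last needed for the fusion of macrophages and osteoclasts. The profile was mostly that of the I-A chains, with r of 0.99 for H2-Aa and 0.93 for H2-Ab1. Other members lay below these 6 genes, at 0.85 for H2-Eb1, 0.77 for Cd74, 0.68 to 0.69 for the DM genes and 0.02 for Ciita. Itgax stood at 8.18, 8.91, 8.21 and 8.83 with Hepcidin, against 7.79, 8.93, 8.11 and 8.58 with PBS, so numbers 2 and 4 were high in both groups as for the I-A chains. The costimulatory gene Cd86 (F test adjusted p 0.0188) and Id2 (0.0134), a regulator needed for dendritic cells, were the genes among the 39 of the pathway that differed between numbers. Cd86 was highest in number 1, at 8.16 with Hepcidin and 7.75 with PBS, where the I-A chains were low.

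Markers of other cells that carry class II molecules were read beside these differences. Of 13 dendritic cell markers 2 differed between numbers, Itgax and the chemokine gene Ccl22 (F test adjusted p 0.0389), and the list's mean level ran from 4.34 to 4.62 over the Hepcidin arrays and from 4.47 to 4.60 over the PBS arrays. Means lay at or near background for Flt3 (4.91), Zbtb46 (4.29), Xcr1 (4.63) and Clec9a (3.68), and the pair means of these 4 stayed within 0.28 over the numbers. Batf3, a transcription factor of cross-presenting dendritic cells, had a mean of 4.70, below the background mark. Its pair means ran from 4.36 in number 1 to 4.97 in number 2 (F test adjusted p 0.363). Those of numbers 3 and 4 (4.72 and 4.76) differed by less than the arrays of either number. Ccr7, a homing receptor at a mean of 4.95, had an unadjusted F test p of 0.0273 (adjusted p 0.178), with pair means from 4.79 in number 2 to 5.21 in number 4. Of 9 B cell markers 0 passed and 1 had an unadjusted p under 0.05, with list means from 4.09 to 4.15 with Hepcidin and from 4.06 to 4.24 with PBS, and Cd79a, Ms4a1 and Pax5 lay at 3.46, 3.21 and 3.82. That 1 was Cd79b, a signalling chain of the B cell receptor, with a mean of 5.36, above the background mark. Its pair means were 4.57, 5.61, 5.45 and 5.81 for numbers 1 to 4 (2.36-fold, F test unadjusted p 0.00334, adjusted p 0.0553), low in number 1 as for most class II genes. Cd22, also above the mark at 6.33, had an adjusted p of 0.271. Of the 7 macrophage markers 2 differed between numbers. Fcgr1, which encodes the high-affinity IgG receptor, had pair means of 9.01, 10.58, 10.71 and 11.35 for numbers 1 to 4 (5.04-fold, F test adjusted p 0.00134), and Mertk was lowest in number 1 at 7.92, against 8.28 to 8.58 in the others (adjusted p 0.0258). Genes of neutrophils and their precursors had the most calls, 8 of 10, with list means from 4.37 to 5.94 with Hepcidin and from 4.54 to 5.98 with PBS. Ngp stood at 4.54, 7.95, 8.20 and 7.69 with Hepcidin, against 4.62, 8.12, 8.03 and 7.38 with PBS. It was low in number 1 and as high in number 3 as in number 2. Ltf was highest in number 3, with a pair mean of 5.72 against 5.30 in number 2. Elane and S100a9 also had their highest pair mean in number 3, but their numbers 2 and 3 differed by less than the arrays numbered 2. H2-Aa had its lowest pair mean in number 3, not separable from that of number 1. Mpo (pair means 4.77, 7.28, 7.09 and 6.51 for numbers 1 to 4), Prtn3, Ctsg and S100a8 were highest in number 2 and lowest in number 1. So were the pair means of H2-Ab1, H2-Eb1 and the DM genes. Number 3 lay above number 4 for Mpo, Prtn3, Ctsg and S100a8, and below it for H2-Ab1 (7.80 against 8.31). For H2-Eb1 and the DM genes numbers 3 and 4 differed by less than the arrays of a number, so no contrast is drawn for them. T and NK cell markers gave 0 of 10 and endothelial markers 1 of 8. What part such cells have in the differences between numbers was not tested.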

How the data were processed

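Total RNA of 8 samples was labelled with biotin for Affymetrix whole-transcript arrays, per the labels' protocols. Per the submitters' processing notes, the deposited log2 values came from RMA (affy 1.36.1), which corrects background, normalizes between arrays and summarises probes. The probe set definition is not given in the sources used here. They spanned 1.73 to 13.6 and were not normalized again. Of 24973 probe sets, 24015 had 1 gene symbol in the platform annotation and none had several. Their numbers equalled the Entrez gene number. The brighter probe set was kept for 4 repeated symbols, leaving 24011 genes, and no filter on low values was applied. Of these, 23919 were matched by number to RefSeq (GRCm38.p6), used for names, gene types and promoters.

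Groups and numbers came from the sample titles. Hepcidin and PBS were compared with limma 3.58.1 in R 4.3.3 (lmFit, eBayes), with Benjamini-Hochberg adjustment across the 24011 genes and a threshold of 0.05. The number was tested by limma's F test. The fits were tested on simulated data whose noise had the residual SD of the fit with the number as a block. That noise lacks the spread between numbers seen here, so the simulation does not show how the fit without a block performs on these arrays. Taken across genes, each array's deviation from its group mean had a correlation of 0.344 to 0.548 with the like-numbered array of the other group. With the others it was -0.356 to 0.124. The numbers were taken to pair the arrays, above a bound of 0.1 for each pair, though Hepcidin 2 with PBS 3 (0.124) also lay above that bound. Deviations from a group mean sum to 0, so positive values for like numbers by themselves push those for unlike numbers down. Figures used matplotlib 3.10.9.

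The members, lists, alternatives and the likeness rule were chosen with earlier results of these data known. Named genes were the 8 members and, per list, those passing, or else the 2 with the smallest unadjusted p, plus a fixed set of 10 measured pathway genes. Alternatives were other normalizations, filters on dim genes, all probe sets, trend and robust variance, the number as a fixed or random block, and leaving out arrays or numbers. The number of arrays limits the precision.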

Additional observations from a re-analysis of the deposited data

Results flagged for a closer look

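Ciita stood out in the difference of the arrays numbered 1, which was -0.727 on the log2 scale while the other 3 pairs lay between 0.16 and 0.32. Its gap to the nearest pair exceeded the 95% critical value of Dixon's test for 4 values. Of 46 sets of 4 values tested this was the only such set, and chance flags about 1 in 20. The Hepcidin array numbered 1 was the lowest of its group at 4.33 and the PBS array numbered 1 the highest at 5.06, with both near the background mark.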

How the results depend on the processing

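The number of class II members passing for Hepcidin against PBS was 0 under all 25 alternatives, as was that of the 39 pathway genes. With the replicate number as a fixed or random block both counts were 0. Over all genes 0 passed without a block, 1 with the fixed block and 5 with the random block, among these Tnf (adjusted p 0.0169), which also passed at a mean level of at least 6 (0.0483) and without Hepcidin replicate 2 (0.0478). The smallest adjusted p of a member was 0.784, for H2-DMb2 with the block. Differences near 0 changed sign: Cd74 to 0.0014 with median centring and, with the block, to 0.058 without number 1 and 0.0087 without number 4, and Ciita to 0.0022 with median centring and 0.0012 with cyclic loess. When arrays or numbers were left out, values ran from -0.19 to 0.28 for H2-Aa, -0.044 to 0.30 for H2-Ab1, -0.16 to 0.017 for H2-Eb1, -0.042 to 0.27 for H2-DMb1, -0.18 to 0.10 for Cd74 and -0.12 to 0.22 for Ciita. H2-DMa (-0.22 to -0.02) and H2-DMb2 (-0.62 to -0.19) kept their sign. The count of members differing between numbers was 3, and 1 to 2 when a number was left out. It was 6 of the 6 members tested with a mean level of at least 6 (31.2% of the genes tested passed), 6 of 6 at or above the median level (21.6%) and 5 with trend and robust variance (11.8%). The filters left out the dim H2-DMb2 and Ciita and adjusted over fewer genes. Levels near background limit what can be said of these 2 genes.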
